A study of Mus musculus with 8 samples.

Results

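Fgf21, its co-receptor gene Klb, the 4 FGF receptor genes Fgfr1, Fgfr2, Fgfr3 and Fgfr4, and the stress hormone gene Gdf15 were followed in mouse liver on 8 single-colour arrays. They are 7 of the 19752 genes with a symbol on the array and carry 12 of its 55681 probes. All 12 passed the filter on dim probes, which asks for both arrays of a group to be well above background, and 9 were so on all 8 arrays. The livers came from male C57BL/6 mice bought at 5 weeks of age. They were fed without restriction either a normal diet (ND, 4.8% fat, 3.8 kcal per g) or a high-fat diet (HFD, 58% fat, 5.2 kcal per g) for 3 or 9 months. Each of the 4 groups held 2 mice, with 1 array per mouse, and the groups asked how diet and time on it alter liver gene expression. The feeding state and the hour at which livers were taken are not given in the sources used here. All mice were killed under ether after blood had been taken, and their age at that time is not given beyond the duration of feeding.

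FGF21 is a hormone that the liver secretes in fasting, ketogenic feeding, amino acid shortage and cell stress. It signals through a receptor tyrosine kinase, chiefly FGFR1, only where the co-receptor beta-Klotho, the product of Klb, is also present. In the liver beta-Klotho pairs mainly with FGFR4, the receptor through which the intestinal hormone FGF15 lowers bile acid synthesis. GDF15 is a second circulating stress signal, made by many tissues, that acts on a receptor in the hindbrain. Transcription of Fgf21 is known to be raised by the fatty acid sensor PPARA and by ATF4, the effector of the integrated stress response.

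The RefSeq promoter table (build GRCm38.p6) gave windows for 6 of the 7 genes. Only the Fgf21 window held a match to 2 of the 3 motifs searched on both strands, so it is printed from 250 bases before the start to the base before it, with both matches in capitals. It lies on the minus strand at chr7:45615491-45615740.
Fgf21: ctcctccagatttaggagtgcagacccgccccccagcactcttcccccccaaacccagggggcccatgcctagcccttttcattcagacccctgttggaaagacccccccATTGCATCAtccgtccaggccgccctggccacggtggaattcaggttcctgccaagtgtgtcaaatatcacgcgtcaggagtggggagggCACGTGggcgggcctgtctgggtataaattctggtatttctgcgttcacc
The first run of capitals starts 140 bases before the start and is a reverse-strand match to TGATGNAAN, the pattern that ATF4 and C/EBP factors bind. The second starts 50 bases before the start and is the E-box CACGTG. The ATF4 pattern was present in 3.95% of 32851 promoter windows, each of 300 bases up to 50 bases after the start, and the E-box in 7.15%. Among the other genes, an E-box stood 83 bases before the start of 1 of the 2 Gdf15 windows and 28 bases after the start of Fgfr2. The windows of Klb, Fgfr3 and Fgfr4 held no match. The pattern for PPAR dimers was searched only as the exact letters AGGTCA repeated in the same direction with 1 base between. It was found in no member window and in 0.0396% of all windows. Letters this rare would be missing from most small sets of windows, so their absence says nothing about the members. Looser forms of the pattern were not searched. The matches in the Fgf21 window do not overlap. These matches are descriptions of letters and not of bound sites.

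Levels are given as log2 scaled signal, the log2 of the processed spot intensity minus that of the array's 75th percentile, so 0 is the 75th percentile of the array and each step of 1 is a doubling. A gene with several probes is represented by its probe of highest mean. A difference is called when the adjusted p from limma, with Benjamini-Hochberg correction over all 20165 features tested, is under 0.05, and log2 differences are given ± standard error with 2 mice per group. Each diet had a slide of its own, and on both slides row 1 carried the 3-month and row 2 the 9-month mice. Diet cannot be told apart from slide, nor duration from row. As all mice were bought at the same age, duration also cannot be told apart from the age of the mice. The 75th percentile of intensity ranged from 482 to 597 for ND and from 185 to 428 for HFD, the lowest being that of the second 9-month HFD mouse. All 10 hepatocyte markers, among them Alb, Apoa1, Ttr and Cps1, were well above background on every array. The p-values measure the spread between mice and arrays together.

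Fgf21 was the member that differed most between groups. After 9 months on the normal diet its signal was 34.0-fold higher than after 3 months, and the 3-month HFD livers lay between those groups. Its single probe read -2.44 and -1.28 in the 3-month ND mice and 3.80 and 2.65 in the 9-month ND mice. In the HFD livers it read 0.52 and 0.93 at 3 months and 3.27 and 4.41 at 9 months. The probe was well above background on all 8 arrays, with raw intensities from 103 in the first 3-month ND mouse to 8296 in the first 9-month ND mouse. No 3-month array, on either diet, reached the lowest 9-month array. The group means ± SD were -1.86 ± 0.82 (ND 3 months), 0.73 ± 0.29 (HFD 3 months), 3.22 ± 0.81 (ND 9 months) and 3.84 ± 0.81 (HFD 9 months), and only the last neighbours in that order overlapped.

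**Figure D1:**
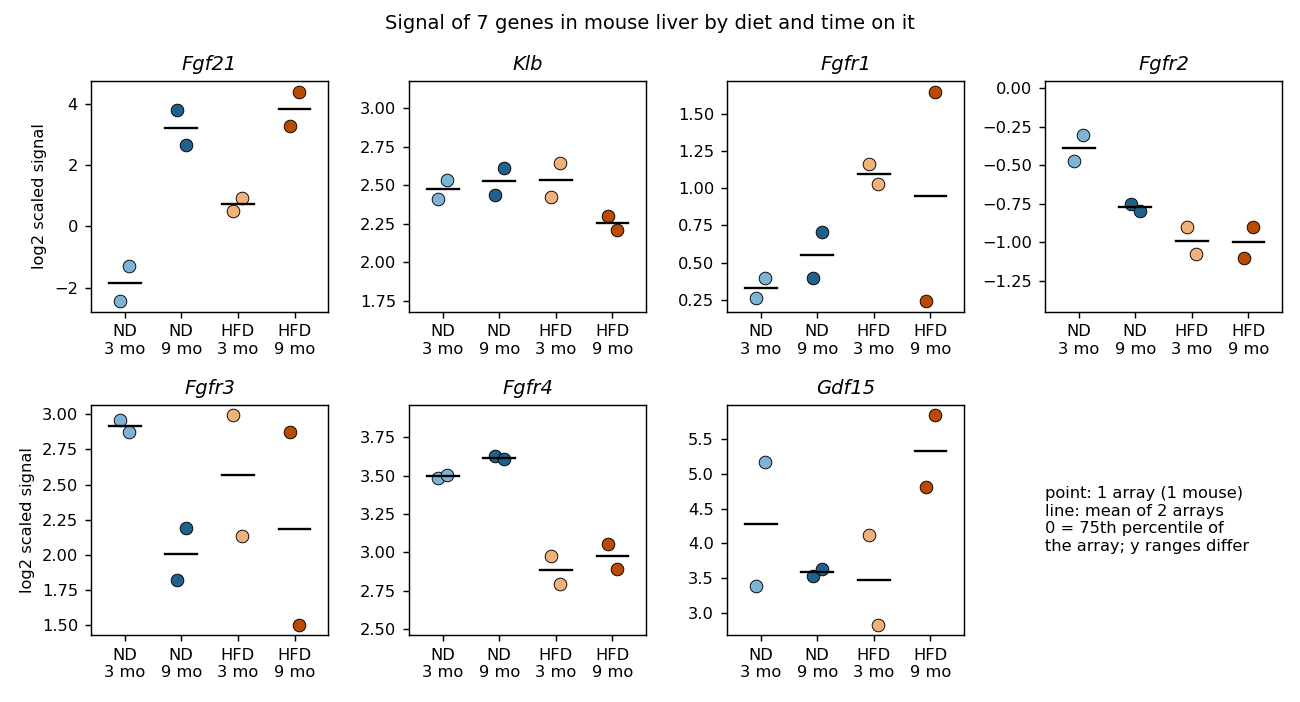
Log2 scaled signal (0 is the array's 75th percentile) of the brightest probe of each gene in the 4 groups; points are arrays and lines are means of 2 mice, and the y ranges differ between panels. The mean of Fgf21 is -1.86 in the 3-month ND livers and 3.22 and 3.84 in the 9-month ND and HFD livers, and Fgfr4 lies lower on all 4 HFD arrays than on all 4 ND arrays.

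Across duration on the normal diet, the Fgf21 difference was 5.09 ± 0.59 (95% interval 3.65 to 6.52, adjusted p = 0.0290). It was the only 1 of the 7 members called in that comparison, where 1.04% of all features were called. Leaving out 1 array at a time, the difference stayed between 4.50 and 5.67, but the call was kept only without either 9-month HFD array (adjusted p = 0.0350 for each). Without the first or second 3-month ND array the adjusted p was 0.208 and 0.170, and without the first or second 9-month ND array it was 0.107 and 0.0555. Leaving out either 3-month HFD array gave 0.0551. On the high-fat diet the 9-month livers were 8.65-fold higher, a log2 difference of 3.11 ± 0.59 (adjusted p = 0.141), and the arrays did not overlap. That comparison called none of the members and 0.00992% of all features. Without the first 9-month HFD array the Fgf21 difference on the high-fat diet was 3.68 and passed the threshold (adjusted p = 0.0406).

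By diet, Fgf21 was 6.01-fold higher on the high-fat diet at 3 months, a difference of 2.59 ± 0.59 (95% interval 1.16 to 4.02) whose adjusted p of 0.0598 missed the threshold. The arrays of the diets did not overlap at this duration. Without either 9-month HFD array the same difference had an adjusted p of 0.0493. At 9 months the diets overlapped and differed by 0.61 ± 0.59 (95% interval -0.82 to 2.05, adjusted p = 0.536). The test of the change in diet effect between durations gave -1.97 ± 0.84 (adjusted p = 0.661), so the diet effects at the 2 durations were not shown to differ. No feature was called for this change (0% of 20165), and 1537 features had an unadjusted p under 0.05. Over both durations the diet difference was 1.60 ± 0.53 (adjusted p = 0.0678), and it passed the threshold without the first 9-month ND array (2.03, adjusted p = 0.0307) or the first 9-month HFD array (2.03, adjusted p = 0.0396).

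Macrophage markers also differed between the groups, with none called. The list's 9 measured genes of 10 had a summed level, in multiples of the array's 75th percentile, of 66.4 to 79.8 in the 3-month ND livers and 133 to 404 in the 9-month ND livers. On the high-fat diet the sums were 105 to 132 at 3 months and 132 to 214 at 9 months. The first 9-month and first 3-month HFD mice both had a sum of 132, with Fgf21 at 3.27 and 0.52. Between these mice Adgre1, Lyz2, Cd5l, Vsig4 and Itgam were higher at 9 months, and Csf1r, Marco, Clec4f and Timd4 lower. Of the 9 genes, 8 were higher after 9 months on the normal diet (median difference 1.64) and 7 were higher on the high-fat diet at 3 months (median 1.54), and none was called in either. The scavenger receptor gene Marco read 1.42 and 0.23 at 3 months and 7.49 and 5.60 at 9 months. The part of this in the Fgf21 difference was not tested, and in whole liver more cells of a type and more RNA per cell cannot be told apart.

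Klb, which encodes the co-receptor that lets FGF21 and FGF15 bind their receptors, was even across the groups. Its probe read 2.41 and 2.53 in the 3-month ND mice, 2.44 and 2.61 in the 9-month ND mice, 2.42 and 2.65 in the 3-month HFD mice and 2.30 and 2.21 in the 9-month HFD mice. Both 9-month HFD arrays were the lowest of the 8, while the other groups overlapped. The diet difference was 0.062 ± 0.18 at 3 months (95% interval -0.37 to 0.50, adjusted p = 0.852) and -0.27 ± 0.18 at 9 months (95% interval -0.71 to 0.16, adjusted p = 0.367). Between durations Klb differed by 0.052 ± 0.18 on the normal diet and by -0.28 ± 0.18 on the high-fat diet, with adjusted p of 0.937 and 0.471. The intervals of the diet differences hold no change as large as a doubling in either direction.

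Fgfr4, the main hepatocyte FGF receptor and the partner of beta-Klotho in bile acid control, was lower in the HFD livers. The brighter of its 2 probes read 3.49 and 3.50 in the 3-month ND mice and 3.63 and 3.61 in the 9-month ND mice. In the HFD mice it read 2.98 and 2.79 at 3 months and 3.06 and 2.89 at 9 months. All 4 HFD arrays lay below all 4 ND arrays, and replicates within a group differed by less than the diets did. Over both durations the signal was 1.54-fold lower, a difference of -0.63 ± 0.12 (95% interval -0.90 to -0.35, adjusted p = 0.0125). It was the only call among the 7 members, where 22.1% of all features were called and 11.8% were called lower. Complete separation of the diets was seen for 2 of the 7 members and for 25.5% of all features.

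At single durations the Fgfr4 difference was -0.61 ± 0.17 at 3 months (adjusted p = 0.0915) and -0.64 ± 0.17 at 9 months (adjusted p = 0.0706). None of the 7 members was called at 3 months, where 5.18% of features were, or at 9 months, where 8.28% were. Between durations Fgfr4 differed by 0.12 ± 0.17 on the normal diet and 0.088 ± 0.17 on the high-fat diet (adjusted p = 0.813 and 0.817). Without the second 3-month ND array the pooled difference was -0.63 with an adjusted p of 0.0519. Taking the mean of both probes it was -0.54 (adjusted p = 0.0816). The dimmer probe read -0.29, -0.26, -0.03 and -0.19 on the ND arrays in the same order. On the HFD arrays it read -0.13, -0.39, -0.45 and -1.63. These overlapped between the diets, the pooled difference was -0.46 ± 0.30 (adjusted p = 0.307 over 25801 probes), and only the second 9-month HFD array stood well below the others.

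The summed level of the 10 hepatocyte markers was 4783 to 5257 and 4525 to 4657 in the 3- and 9-month ND livers, and 3174 to 3346 and 3329 to 5349 in the HFD livers. The sum of 5349, in the second 9-month HFD mouse, was the highest of the 8 arrays, and Fgfr4 read 2.89 there. The list was split on that array: Serpina1a, Fgb and Apob read highest of the 8 arrays, and Cps1, Tat and Tdo2 lowest. Over both durations 2 of the 10 markers were called lower, Tat and Hnf4a, where 11.8% of features were. The median difference was -0.43. The part of this in the Fgfr4 difference was not tested.

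**Figure D2:**
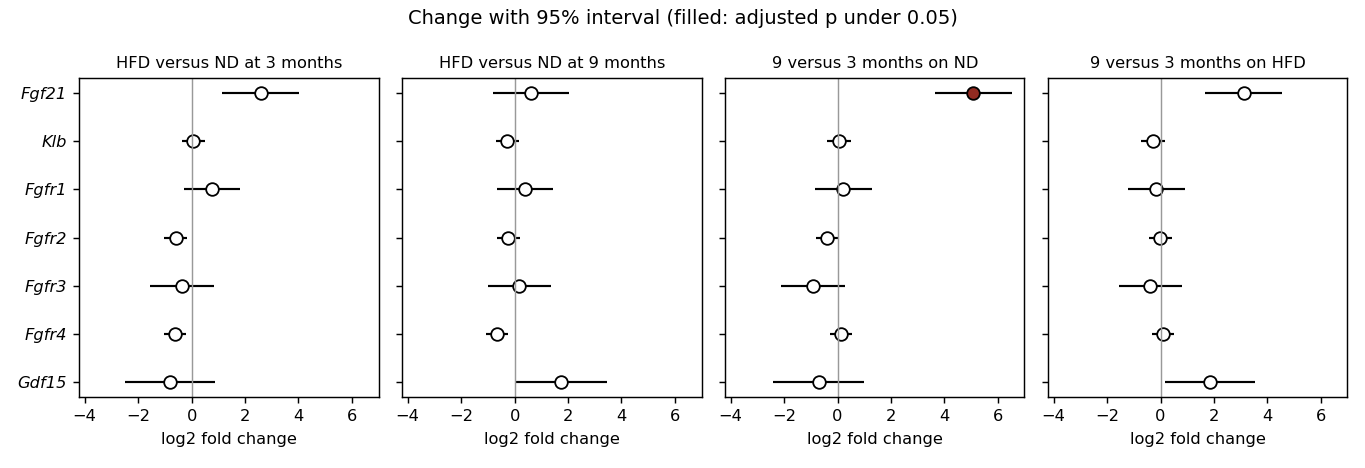
Log2 difference of each gene in the 4 comparisons between groups, with its 95% interval from limma (2 mice per group); filled points have an adjusted p under 0.05. The only filled point is Fgf21 after 9 against 3 months on the normal diet, at 5.09.

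Fgfr1, the receptor that mediates FGF21 action in fat and brain, gave no single answer, because its 3 probes disagreed in direction. The probe of highest mean, A_55_P1967015, read 0.26 and 0.40 at 3 months and 0.39 and 0.71 at 9 months on the normal diet. On the high-fat diet it read 1.16 and 1.03 at 3 months and 0.24 and 1.65 at 9 months, where the 2 mice lay at opposite ends of the whole range. Its diet differences were 0.77 ± 0.44 at 3 months (adjusted p = 0.309) and 0.40 ± 0.44 at 9 months (adjusted p = 0.592). Without the first 9-month HFD array the 9-month difference was 1.101 (adjusted p = 0.0386) and the pooled difference 0.90 (adjusted p = 0.0186), and without the second the 9-month difference turned to -0.31.

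A second Fgfr1 probe, A_55_P2057777, ran the other way. It read 0.46, 0.47, 1.08 and 1.73 on the ND arrays, in order of duration. On the HFD arrays it read -0.39, -0.19, -0.65 and 0.08, all below the lowest ND array. In the fit of all 25801 kept probes its diet difference was -0.75 ± 0.32 at 3 months (adjusted p = 0.214) and -1.69 ± 0.32 at 9 months (3.23-fold lower, adjusted p = 0.0347). Over both durations it was -1.22 ± 0.28 (adjusted p = 0.0234). That fit called 7.2% of probes at 9 months and 19.8% over both durations. The third probe, A_55_P1967022, was well above background on 5 arrays and on neither 9-month HFD array. There it was at least 2.15-fold lower than in the 9-month ND livers (adjusted p = 0.0995), with measured means of -3.53 and -2.43. For dim probes a bound sets the mean of the brighter group against a floor for the dim group. The floor is the higher of the probe's own signal and the lowest signal well above background on its array. Here the bound equals the measured difference. Such bounds allow for the background and not for the spread between mice. All 3 probes carry the same transcript identifier, and which part of the gene each reads is not given in the files.

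Fgfr2, whose product is best known from epithelia and bile duct cells, had a lower signal on every HFD array than on any ND array by its brighter probe, with no call. That probe read -0.47 and -0.30 in the 3-month ND mice, -0.75 and -0.80 in the 9-month ND mice, -0.90 and -1.08 in the 3-month HFD mice and -1.10 and -0.90 in the 9-month HFD mice. The 3-month ND arrays were the highest of the 8. The pooled diet difference was -0.41 ± 0.14 (adjusted p = 0.0723). At 3 months it was -0.60 ± 0.18 (adjusted p = 0.105) and at 9 months -0.23 ± 0.18 (adjusted p = 0.445). Without the second 9-month HFD array the pooled difference was -0.49 and passed the threshold (adjusted p = 0.0327).

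The other Fgfr2 probe is printed at 10 places on each array, which shows the error within an array. With outlier spots left out, the SD of its 9 or 10 spots lay between 0.14 and 0.24 on ND arrays and between 0.45 and 0.94 on HFD arrays. None of its 10 spots was well above background on the second 9-month HFD array. Its array means were -2.75, -2.62, -3.21 and -3.29 on the ND slide and -3.12, -3.37, -3.58 and -3.55 on the HFD slide. The pooled difference was -0.44 ± 0.13 (adjusted p = 0.0563), near that of the brighter probe, although here the diets overlapped.

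Fgfr3, a receptor found in liver next to Fgfr4 and known for restraining bone growth, varied widely between mice of the same group on the high-fat diet. The brighter probe read 2.96 and 2.87 in the 3-month ND mice and 1.82 and 2.19 in the 9-month ND mice. In HFD mice it read 2.99 and 2.14 at 3 months and 2.87 and 1.50 at 9 months. Only the ND groups did not overlap, with a difference over time of -0.91 ± 0.49 (adjusted p = 0.449). The diet differences were -0.35 ± 0.49 at 3 months and 0.18 ± 0.49 at 9 months, with adjusted p of 0.678 and 0.842. The dimmer probe was well above background on 7 arrays, missing the second 9-month HFD array, and was lower by 0.51 ± 0.21 on the high-fat diet over both durations (adjusted p = 0.126).

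**Figure D3:**
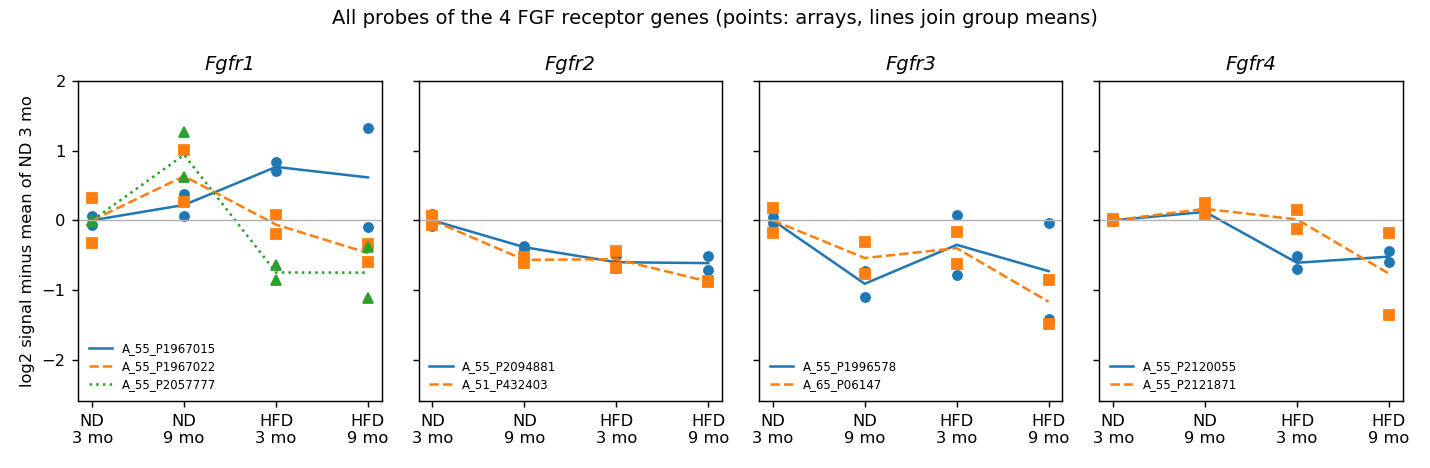
Log2 signal of each probe of the 4 receptor genes relative to its own mean in the 3-month ND livers; points are arrays and lines join group means. The 3 Fgfr1 probes part on the high-fat diet, where A_55_P1967015 is 0.77 above its 3-month ND mean at 3 months and A_55_P2057777 is lower by 0.75, while both Fgfr2 probes lie below their 3-month ND means in each other group.

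Gdf15, the gene of a hormone that lowers food intake, was highest in the 9-month HFD livers, apart from 1 ND mouse. Its probe read 3.39 and 5.17 in the 3-month ND mice, 3.53 and 3.63 in the 9-month ND mice, 4.12 and 2.82 in the 3-month HFD mice and 4.81 and 5.84 in the 9-month HFD mice. The second 3-month ND mouse lay between the 9-month HFD mice. At 9 months the HFD livers were 3.36-fold higher, a difference of 1.75 ± 0.70 (95% interval 0.05 to 3.45, unadjusted p = 0.0454, adjusted p = 0.165) with no overlap. From 3 to 9 months on the high-fat diet the difference was 1.85 ± 0.70 (adjusted p = 0.298). At 3 months the diets differed by -0.81 ± 0.70 (adjusted p = 0.495), and without the second 3-month ND mouse by 0.086. The change in diet effect between durations was 2.55 ± 0.99 (unadjusted p = 0.0405, adjusted p = 0.640).

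Non-overlap of 2 against 2 arrays was common on these arrays. It held for 4 of the 7 members for diet at 3 months, where 71% of all features were separated. For diet at 9 months it held for 4 members against 54.6% of features. Over time it held for 4 members against 60.5% on the normal diet and for 3 members against 44.3% on the high-fat diet. The members were near or under these shares.

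The genes whose profile over the 8 arrays came nearest that of Fgf21, by root mean square difference of mean-centred log2 values among 12884 genes, were Mt1 (0.72), Cdkn1a (0.79) and Acod1 (0.80). Mt1 encodes the metal-binding protein metallothionein, Cdkn1a the cell cycle inhibitor p21 and Acod1 the macrophage enzyme that makes itaconate. They were chosen for likeness on these same arrays, so their differences are a description with no test. Over time on the normal diet Mt1 differed by 5.91 and Cdkn1a by 4.06, beside 5.09 for Fgf21. The diet differences at 3 months were 2.00 for Mt1 and 2.25 for Cdkn1a, beside 2.59 for Fgf21. At 9 months the profiles parted, with -1.08 for Mt1, 0.055 for Cdkn1a and -0.92 for Acod1, beside 0.61 for Fgf21. Acod1 was well above background on 4 arrays and on neither 3-month ND array. By the bound for dim probes, which leaves out the spread between mice, it was at least 8.37-fold higher after 9 months on the normal diet. The measured means were -5.92 and -0.95.

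Nearest to Gdf15 were Dusp4 (0.42), a phosphatase that switches off ERK, the endothelial repressor gene Bcl6b (0.45) and the early-response gene Jun (0.47). Dusp4 was well above background on 5 arrays and Bcl6b on 4. Nearest to Fgfr4 were Cnot10 (0.066), Luc7l (0.087) and Ubtf (0.089), which serve mRNA decay, splicing and ribosomal RNA transcription. Their diet differences over both durations, -0.58, -0.61 and -0.59 beside -0.63 for Fgfr4, follow from that choice and were not tested. Klb lay nearest Dpp6 (0.047), Gfus (0.065) and Polr3c (0.074), but its own SD over the arrays was only 0.15. Profiles that vary this little come close to one another readily, and all 8 values of each gene share the slides.

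**Figure D4:**
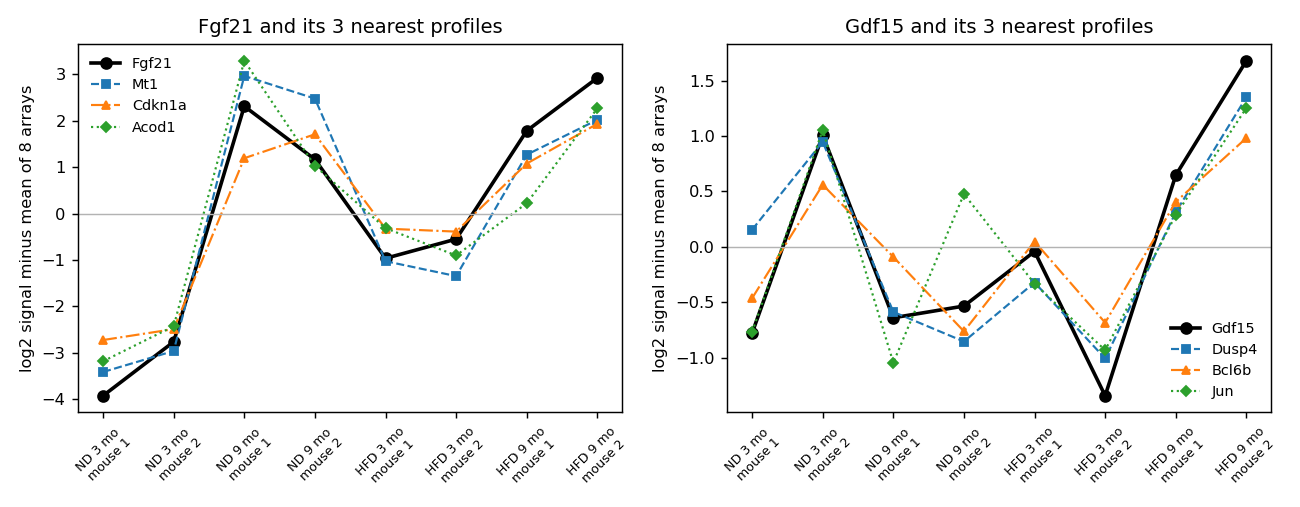
Log2 signal minus the gene's own mean over the 8 arrays, array by array, for Fgf21 and Gdf15 (black) and the 3 genes of smallest root mean square difference from each. Fgf21 and Mt1, which differ by 0.72 on this measure, are lowest in both 3-month ND mice, and Gdf15 and its neighbours are all high in the second 3-month ND mouse and the second 9-month HFD mouse.

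Genes around FGF21 were read from lists, beside the 1.51% of features called higher and 3.67% called lower at 3 months, 3.56% and 4.73% at 9 months, 0.441% and 0.595% over time on the normal diet, and 10.3% and 11.8% for diet over both durations. The PPARA targets were 27 genes that the sensor switches on, many but not all of them genes of fatty acid oxidation. Between 3 and 9 months on the normal diet 7 were called higher and none lower. Of the 27, 24 had a difference above 0, and the median was 0.88 against -0.075 over all features. Cyp4a32 rose by 3.20 ± 0.21, Cyp4a31 by 3.06 ± 0.21, Cyp4a10 by 2.94 ± 0.20 and Acot1 by 3.04 ± 0.21 (adjusted p = 0.00697, 0.00721, 0.00721 and 0.00721). The Cyp4a genes encode fatty acid hydroxylases so alike in sequence that their probes may not tell them apart, and Acot1 encodes an acyl-CoA thioesterase. The count was 0 without either 3-month ND array or the first 9-month ND array, 4 without the second, and 5 or 9 without an HFD array.

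At 3 months, 4 PPARA targets were called higher on the high-fat diet and none lower, with a median of 0.76 against -0.0066 over all features. Acot2 rose by 2.32 ± 0.45, Cyp4a10 by 1.34 ± 0.20, Cyp4a32 by 1.06 ± 0.21 and Cyp4a31 by 1.03 ± 0.21 (adjusted p = 0.0432, 0.0252, 0.0452 and 0.0478). This count fell to 0 without any of the 4 arrays compared and to 2 without either 9-month ND array, and became 9 higher and 1 lower without either 9-month HFD array. At 9 months 6 targets were lower on the high-fat diet and none higher, with a median of -0.39. Cyp4a32 fell by 1.77 ± 0.21, Acot1 by 1.76 ± 0.21, Cyp4a31 by 1.44 ± 0.21 and Ehhadh, a peroxisomal oxidation enzyme, by 1.33 ± 0.18 (adjusted p = 0.0107, 0.0108, 0.0161 and 0.0139). Leaving out a 9-month ND array left 2 of these calls. Over time on the high-fat diet none of the 27 was called and the median was 0.058, where 0.00496% of features were called in each direction. Over both durations Hadhb, a subunit of the mitochondrial oxidation complex (0.70, adjusted p = 0.0118), and the pantetheinase gene Vnn1 (1.09, adjusted p = 0.0248) were the 2 of 27 called higher, where 10.3% of all features were, and none of the 27 was without the second 3-month ND array. These comparisons share groups, so their values stand side by side only.

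Of 23 measured genes of the integrated stress response, the ATF4 program, none was called by diet at 3 months or over time on the normal diet (medians 0.014 and -0.12). At 3 months the smallest p were those of Trib3 (-0.81 ± 0.21, adjusted p = 0.0776), a brake on ATF4 signalling, and the folate enzyme gene Mthfd2. Mthfd2 was not well above background on any HFD array. By the bound for dim probes, which leaves out the spread between mice, it was at least 1.86-fold lower at 3 months. The measured means were -2.69 and -5.24, and the difference was not called (adjusted p = 0.0633). At 9 months 4 genes were called higher on the high-fat diet and none lower, while 9 of the 23 had a difference below 0. The lowest of these, at -4.10 ± 1.13 (adjusted p = 0.0755), was that of the asparagine synthetase gene Asns, whose diets did not overlap. The stress kinase gene Eif2ak3 rose by 1.80 ± 0.27, the serine synthesis gene Psat1 by 2.21 ± 0.42, the glutathione-degrading Chac1 by 1.48 ± 0.32 and Trib3 by 0.95 ± 0.21 (adjusted p = 0.0174, 0.0311, 0.0449 and 0.0452). Without the second 9-month ND array none of the list was called. The count was 1 higher without either 3-month ND array, 1 higher and 1 lower without the first 9-month ND array, and 1 higher and 2 lower without the second 9-month HFD array.

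The 15 transcription factors and regulators known to act on Fgf21 gave no call in any of the 4 comparisons between groups. At 3 months the smallest p were those of the coactivator gene Ppargc1a (0.97 ± 0.26, adjusted p = 0.0832) and the liver stress factor gene Creb3l3 (0.58 ± 0.17, adjusted p = 0.102). At 9 months they were those of the deacetylase gene Sirt1 (0.72 ± 0.18, adjusted p = 0.0571) and Ddit3, the gene of the stress factor CHOP (1.02 ± 0.31, adjusted p = 0.0941). Over both durations 3 of the 15 were called higher on the high-fat diet, where 10.3% of features were: Sirt1 (0.62 ± 0.13), Ddit3 (0.92 ± 0.21) and Ppargc1a (0.70 ± 0.20), with adjusted p of 0.0153, 0.0224 and 0.0454. Without the second 3-month ND array none of the 15 was called. Ppara, named after its values were seen, was not called in any of these comparisons.

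Downstream of the receptors, 1 of 20 adaptor and ERK cascade genes and 1 of 16 measured ERK feedback and early genes were called, both higher on the high-fat diet at 9 months. These were Pik3r1, a regulatory subunit of PI3-kinase (1.60 ± 0.29, adjusted p = 0.0278), and Spred1, an inhibitor of RAS to ERK signalling (0.97 ± 0.20, adjusted p = 0.0378). Pik3r1 was not called without any of the 4 ND arrays or the second 9-month HFD array, and Spred1 was not called at 9 months when any of the 8 arrays was left out. Next by p at 9 months came Braf (-0.65 ± 0.20, adjusted p = 0.0969) and Dusp4 (1.55 ± 0.45, adjusted p = 0.0846). At 3 months neither list had a call. The smallest p there were those of Ptpn11 (0.46 ± 0.17), Pik3r1 (0.65 ± 0.29), Dusp1 (-1.82 ± 0.60) and Myc (-1.19 ± 0.41), with adjusted p of 0.156, 0.207, 0.124 and 0.138. Over both durations, where 10.3% of all features were called higher, 2 of the 20 and 1 of the 16 were. These were Pik3r1 (1.13 ± 0.26), the adaptor gene Grb2 (0.43 ± 0.13) and Spred1 (0.74 ± 0.16), with adjusted p of 0.0228, 0.0482 and 0.0186. Leaving out 1 array gave 0 to 4 calls among the adaptors and 0 to 2 among the feedback genes.

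In the bile acid axis that FGFR4 controls, 13 of 14 genes were measured. Cyp7b1, an oxysterol hydroxylase of the alternative pathway, fell by 1.90 ± 0.30 on the high-fat diet at 3 months (adjusted p = 0.0271). Cyp8b1, which makes cholic acid, fell by 2.21 ± 0.40 at 9 months (adjusted p = 0.0283). The first call was lost without any of the 4 arrays compared, and the second without either 9-month ND array or the second 9-month HFD array. The hepatocyte factor gene Hnf4a had the next smallest p at each duration, with -0.55 ± 0.18 and -0.73 ± 0.18 (adjusted p = 0.129 and 0.0610). Over both durations Hnf4a fell by 0.64 ± 0.13 and Cyp7b1 by 1.31 ± 0.29 (adjusted p = 0.0155 and 0.0215). Slc51b, a subunit of the bile acid exporter, was called higher (adjusted p = 0.0311), but was well above background on neither 9-month ND array nor the second 9-month HFD array. Its measured means at 9 months were -3.16 on the high-fat diet and -5.57 on the normal diet (adjusted p = 0.126). With 1 of these HFD arrays dim, no lower bound on that difference can be given. Neither of the falls over both durations was called without either 3-month ND array, and that of Cyp7b1 was also lost without the first 3-month HFD, the first 9-month HFD or the second 9-month ND array. Slc51b was called only without the second 9-month HFD or the first 9-month ND array. Cyp7a1, the rate-limiting enzyme of bile acid synthesis and named here after its values were seen, differed by -1.03 at 9 months (adjusted p = 0.439).

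**Figure D5:**
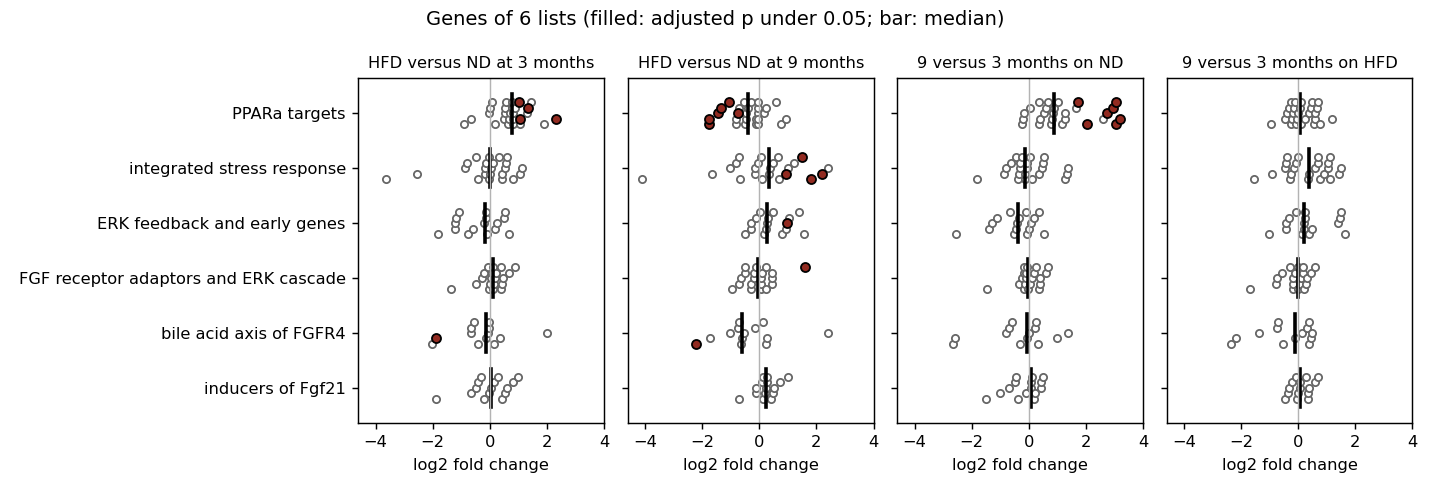
Log2 difference of every measured gene of 6 lists in the 4 comparisons between groups; filled points have an adjusted p under 0.05 and vertical bars are medians. The filled PPARA targets lie above 0 for diet at 3 months and for time on the normal diet (medians 0.76 and 0.88) and below 0 for diet at 9 months (median -0.39).

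Among the genes linked to GDF15, its receptor genes Gfral and Ret were not measured above the background filter, and 12 of the 14 listed genes were. Cdkn1a rose on the high-fat diet at 3 months by 2.25 ± 0.33 and over time on the normal diet by 4.06 ± 0.33 (adjusted p = 0.0237 and 0.0146). Nfe2l2, which encodes the antioxidant factor NRF2, was higher on the high-fat diet by 0.87 ± 0.18 at 3 months (adjusted p = 0.0508) and rose by 0.90 ± 0.18 at 9 months (adjusted p = 0.0369). Cdkn1a was not called without any of the 4 arrays compared, and at 9 months the list had a higher call only without the second 9-month HFD array. Over both durations 2 of the 12 were called higher, where 10.3% of all features were. These were Ddit3 and Nfe2l2, with 0.92 ± 0.21 and 0.88 ± 0.12 (adjusted p = 0.0224 and 0.00472).

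Of 13 other FGF ligands, Klotho proteins and helpers, 6 passed the background filter, and Fgf15, Kl, Fgf2, Fgf7, Fgf10, Fgfbp1 and the FGF21-cleaving protease gene Fap did not. None of the 6 was called between groups of 1 duration or diet. At 3 months the growth factor gene Fgf9, above background on 1 of the 2 ND arrays, differed by 2.54 ± 0.70 (adjusted p = 0.0865) and Fgf1 by 0.39 ± 0.17 (adjusted p = 0.218). At 9 months Fgf18 differed by 0.47 ± 0.23 and the Klotho-related Lctl by -0.36 ± 0.18 (adjusted p = 0.230 and 0.240). Fgf9 was called higher over both durations (adjusted p = 0.0319), but was well above background on only 4 of the 8 arrays and on neither 9-month ND array. At 9 months its measured means were -3.57 on the high-fat diet and -4.97 on the normal diet (adjusted p = 0.242). Only 1 of the 2 HFD arrays was above background there, so no lower bound on the difference can be given. Over both durations Fgf9 was called only without the second 9-month HFD or the first 9-month ND array among the sets of 7.

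Other cell types were read from their markers, as ranges of the summed level in ND 3-month, ND 9-month, HFD 3-month and HFD 9-month livers. Calls are for diet over both durations, beside 10.3% of all features called higher and 11.8% lower. Stellate cell and fibroblast markers (9 of 10 measured) summed to 72.6 to 82.2, 79.9 to 104, 95.6 to 130 and 98.1 to 114, and 7 of the 9 were called higher on the high-fat diet. Most of that sum came from Dcn, which differed by 0.23 and was not called (adjusted p = 0.360). Endothelial markers (all 10) summed to 56.8 to 71.2, 49.9 to 60.9, 67.7 to 70.9 and 73.1 to 74.6, with 2 called higher and 1 lower. Cholangiocyte markers (5 of 8, without Krt7, Epcam and Cldn4) summed to 2.97 to 3.28, 2.37 to 2.73, 2.70 to 2.91 and 1.58 to 2.73, with 1 called higher and 2 lower. Adipose tissue and pancreas also express Klb or Fgf21. The adipocyte-defining Adipoq, Plin1, Lep and Retn did not pass the background filter. The other 4 genes of that list, which fatty hepatocytes can express too, summed to 7.37 to 14.9, 6.91 to 20.4, 30.7 to 33.4 and 23.3 to 69.9. Of these, 2 were called higher, Slc2a4 (2.65) and Cidec (1.79), and Slc2a4 was well above background on neither 9-month ND array. Lipe went the other way, at -1.80 (adjusted p = 0.0508), with every HFD array below every ND array. It was well above background on neither 9-month HFD array. Of pancreatic acinar markers, Cela2a, Cpa1, Prss2 and Pnlip did not pass, and the other 4 summed to 9.84 to 10.69, 7.85 to 9.83, 7.67 to 9.32 and 5.85 to 8.30, with none called. T cell markers (5 of 8) summed to 162 to 226, 157 to 220, 31.4 to 55.4 and 23.7 to 28.4, a sum to which Cd4 gave most. Cd4 and Cd3e fell by 2.62 and 1.67 (adjusted p = 0.00186 and 0.0235), while Cd2, Lck and Cd3d differed by 1.21, 0.60 and 0.31 (adjusted p = 0.0592, 0.0993 and 0.737), and the list's median was 0.31.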

How the data were processed

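Liver RNA of 8 mice was hybridised, with Cy3 label, to Agilent mouse arrays. The scanner files were made with Agilent Feature Extraction 10.7.1.1, per the submitters' processing notes. The deposited files hold each spot's processed signal, an intensity already background-subtracted per the file headers, with mean signals, background signals and flags. The deposited value table holds log2 values and served as an alternative. Accessions were matched to symbols through RefSeq (26056 of 55681 probes). Outlier spots were left out, the 75th percentile of gene spots was subtracted on the log2 scale with no pseudocount, and repeated spots were averaged. A probe was kept when well above background on both arrays of a group (25801 probes, 20165 features). The fit used limma 3.58.1 (R 4.3.3), 1 mean per group without a replicate block, and Benjamini-Hochberg adjustment at 0.05. The pooled comparison had duration as a covariate. The script was tested on simulated data. No array was dropped or imputed.

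All probes of the members are reported. From each list the genes of the 2 smallest p in each comparison of diets at 1 duration, and up to 4 called genes, are named. The members and lists were chosen with earlier results of these data known. Leaving out arrays for the list counts was added after the values were seen. Replicate numbers were not treated as pairs. The difference between mouse 1 and mouse 2 of a group was correlated across features with that of each other group. Of these 6 correlations, from -0.018 to 0.14, 1 was over 0.1. The number of arrays limits the precision.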

Additional observations from a re-analysis of the deposited data

How the results depend on the processing

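Directions of Fgf21 were the same under every alternative run. Fgfr4 was lower on the high-fat diet under each alternative, and no call of a member changed sign. Numbers of members called changed as follows. For diet at 3 months (0), 1 was called under normexp background correction, with only probes that were above background everywhere, or with trend and robust moderation, 2 with only the groups compared and 3 with array weights; leaving out an array gave 0 to 1. For diet at 9 months (0), 1 was called with trend and robust moderation, and 0 to 1 with an array left out. For time on the normal diet (1), none was called with no filter on dim probes, with only the groups compared or with the replicate block, where Fgf21 kept its difference of 5.09 (adjusted p = 0.109, 0.0635 and 0.0591); leaving out an array gave 0 to 1, as it did for time on the high-fat diet (0). Over both durations (1), 2 were called under normexp and 3 with array weights, none without the filter on dim probes (Fgfr4 adjusted p = 0.0621) or with the mean of all kept probes, and 0 to 3 with an array left out.

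Differences that were not called turned in sign, small and large: those of Fgfr1 for diet were 0.77 at 3 months, 0.40 at 9 months and 0.58 over both durations, and that of Gdf15 at 3 months was -0.81. With the mean of all kept probes Fgfr1 was -0.014 at 3 months, -0.80 at 9 months and -0.41 over both durations, Fgfr3 was -0.22 at 9 months, and Fgfr4 was -0.35 over time on the high-fat diet. Under normexp and in the authors' value table, Klb at 3 months was -0.10 and -0.049, and Fgfr1 over time on the high-fat diet was 0.17 and 0.24. Fgfr1's change in diet effect was 0.052 in the authors' table. Fgfr2 over time on the high-fat diet was 0.053 with the percentile over probes above background on all arrays and 0.044 under normexp.
Leaving out 1 array at a time, these differences crossed 0. For diet at 3 months they ranged as follows: Klb -0.051 to 0.17, Fgfr3 -0.78 to 0.077, Gdf15 -1.70 to 0.086. For diet at 9 months they ranged as follows: Fgfr1 -0.31 to 1.101, Fgfr3 -0.50 to 0.87. For time on ND they ranged as follows: Klb -0.033 to 0.14, Gdf15 -1.59 to 0.19. For time on HFD they ranged as follows: Fgfr1 -0.86 to 0.55, Fgfr2 -0.11 to 0.087, Fgfr3 -1.06 to 0.31, Fgfr4 -0.0048 to 0.18. For the change in diet effect they ranged as follows: Fgfr1 -1.08 to 0.33, Fgfr3 -0.15 to 1.22, Fgfr4 -0.13 to 0.060. For both durations they ranged as follows: Fgfr3 -0.41 to 0.14.
The counts of features called moved with the alternatives too: from 1045 to between 68 and 3972 for diet at 3 months (0 to 2232 with an array left out), from 1670 to between 0 and 2271 at 9 months (365 to 2505), from 209 to between 5 and 1409 for time on the normal diet (0 to 340), from 2 to between 0 and 70 on the high-fat diet (0 to 1933), from 0 to at most 1 for the change in diet effect (0 to 3), and from 4453 to between 2386 and 6403 over both durations (1840 to 5949). The cause of these changes was not tested. Dim probes limit what can be read: on the second 9-month HFD array just 40.6% of spots were well above background.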

Other observations

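Among the other ligands, Fgf1, a paracrine growth factor that binds all FGF receptors, was well above background on every array. It read 4.80 and 4.73 in the 3-month ND mice, 5.48 and 5.57 in the 9-month ND mice, 5.17 and 5.14 in the 3-month HFD mice and 5.72 and 5.47 in the 9-month HFD mice. Both 9-month groups lay above both 3-month groups without overlap. The differences were 0.76 ± 0.17 on the normal diet and 0.44 ± 0.17 on the high-fat diet (adjusted p = 0.111 and 0.307). These values were singled out after they were seen.

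Over both durations, 7 genes of the integrated stress response were called higher on the high-fat diet and 2 lower, of 23 measured, where 10.3% of all features were called higher and 11.8% lower. In all, 10 of the 23 had a difference below 0. Asns, the asparagine synthetase gene and a standard ATF4 target, was 1 of the 2 called lower and fell by 3.88 ± 0.74 (adjusted p = 0.0132). Its ND arrays read 2.08, 1.81, 1.59 and 4.98 and its HFD arrays -2.29, -1.12, -1.67 and 0.02, so the 9-month mice of each diet differed widely. Psat1 rose by 1.67 ± 0.34 and Eif2ak2, an RNA-sensing stress kinase gene, by 0.63 ± 0.15 (adjusted p = 0.0156 and 0.0265). Leaving out 1 array at a time gave 1 to 6 higher and 1 to 2 lower calls, with 1 higher call without the first 3-month HFD or the second 9-month ND array.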
